A study of Mus musculus with 8 samples.

Results

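The genes described here copy DNA or make its building blocks. They are 52 mouse genes for the replication machinery and for nucleotide synthesis, chosen by gene name: a gene counted where a non-control probe carried its name in the scanner files. Probes were found for 50 of the 52 names, 37 of them replication proteins and 13 nucleotide enzymes, among 17190 genes tested on the array. Older names in the files are Orc1l, Orc2l, Orc6l and Cdc45l, now Orc1, Orc2, Orc6 and Cdc45. Gins2 and Rfc1 had no probe under these names.

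RNA came from R1, a line of mouse embryonic stem cells grown on gelatin in DMEM with serum replacer. Of 8 samples, 4 were cells kept in LIF, the cytokine that holds these cells undifferentiated, without feeders. The other 4 were cells kept without LIF in 0.2 mM sodium butyrate, an inhibitor of histone deacetylases, for 15 passages. On each of 4 Agilent arrays with 2 colours, Cy5 marked a butyrate sample and Cy3 the equally numbered LIF sample. The orientation was never swapped, which means that a dye effect and a treatment effect cannot be told apart. LIF withdrawal and butyrate also came together, and their parts cannot be told apart. All samples are of 1 line and the labels call the 4 replicates independent without naming separate derivations, so p-values reflect how these samples spread and nothing wider.

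In a dividing cell, the origin recognition complex with Cdc6 and Cdt1 loads the MCM2-7 ring onto DNA, which licenses an origin. The kinase Cdc7 with its activator Dbf4 then turns the ring into a working helicase by adding Cdc45 and the GINS complex. Primase and the polymerases copy both strands, held to DNA by the PCNA clamp that the RFC complex loads, while RPA covers single strands and Fen1 and Lig1 join the lagging-strand pieces. Ribonucleotide reductase, thymidylate synthase and the de novo pathways supply nucleotides. Many of these genes are known targets of E2F factors, which switch on transcription as cells enter S phase, and mouse embryonic stem cells spend much of their short cycle in S phase.

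The array measures RNA, and the start regions of the genes were searched for E2F sites and CCAAT boxes. RefSeq windows of assembly GRCm38.p6, running from 250 bases before to 50 bases after each transcription start, matched 43 of the 50 genes. The E2F site was searched in its 4 spellings TTTCCCGC, TTTCGCGC, TTTGCCGC and TTTGGCGC on both strands. It was found in 14 of the 43 genes (32.6%), against 2.6% of 27025 genes in the table. The CCAAT box, searched as CCAAT on both strands, was in 58.1% of the 43 and in 41.1% of all genes. A match is a description of letters, not a site shown to be bound.

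The 200 bases before the start are printed 5′ to 3′ on the gene's strand for 4 genes with an E2F match there, 2 that were lower and 2 that were higher in butyrate. Capitals mark E2F matches and CCAAT boxes. Mcm6 (chr1:128359706-128359905, minus strand) and Mcm5 (chr8:75109309-75109508, plus strand) both encode subunits of the helicase ring. Pola1 (chrX:93632156-93632355, minus strand) encodes the catalytic subunit of polymerase alpha, and Cdc6 (chr11:98907951-98908150, plus strand) a licensing factor.
Mcm6, lower: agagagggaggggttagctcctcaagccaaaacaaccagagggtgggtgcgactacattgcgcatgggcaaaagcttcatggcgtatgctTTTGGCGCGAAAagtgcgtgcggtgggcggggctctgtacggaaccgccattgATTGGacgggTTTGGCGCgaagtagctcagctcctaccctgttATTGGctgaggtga
Mcm5, higher: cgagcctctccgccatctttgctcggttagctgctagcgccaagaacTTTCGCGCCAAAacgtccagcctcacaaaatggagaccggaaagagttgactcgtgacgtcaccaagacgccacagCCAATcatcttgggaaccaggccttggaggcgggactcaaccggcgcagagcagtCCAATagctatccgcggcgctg
Pola1, lower: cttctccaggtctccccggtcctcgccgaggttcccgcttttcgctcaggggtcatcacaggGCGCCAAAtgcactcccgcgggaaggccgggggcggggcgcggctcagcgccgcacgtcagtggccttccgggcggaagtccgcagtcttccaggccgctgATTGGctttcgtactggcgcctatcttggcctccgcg
Cdc6, higher: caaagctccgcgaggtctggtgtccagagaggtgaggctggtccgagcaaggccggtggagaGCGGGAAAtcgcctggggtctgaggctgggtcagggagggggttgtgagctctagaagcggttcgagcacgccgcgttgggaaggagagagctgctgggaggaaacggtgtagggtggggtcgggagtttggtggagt
In Mcm6 and in Mcm5 a pair of E2F matches on opposite strands overlaps, first base at position -110 and -106 from the start in Mcm6 and at -153 and -149 in Mcm5. The overlapping pair reads TTTGGCGCGAAA in Mcm6 and its reverse complement TTTCGCGCCAAA in Mcm5, a run of 12 bases that 4 of the 32851 windows in the table hold. The E2F site was present in 8 of 22 members that were lower (36.4%), 3 of 10 that were higher (30%) and 3 of 11 that did not pass (27.3%). Genes with the site thus lay on both sides of the comparison.

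All 50 members were well above background on all 4 arrays in both channels, and none was saturated, so no filter on dim probes chose among them. Values are log2 ratios of butyrate over LIF within an array after loess normalization, given as the mean ± SD over 4 arrays, and levels are normalized log2 intensities of 1 probe, to be compared between samples and not between genes. A call means an adjusted p under 0.05 by limma over all 17190 genes (Benjamini-Hochberg). Cy3 had a median signal of 62.8 to 66.0 over the arrays, with 57.9% to 61.2% of its spots well above background, and for Cy5 these were 110 to 111.4 and 62.7% to 63.9%. The number of arrays limits the precision.

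With loess, 26 of the 50 members (52%) were lower in butyrate, 12 (24%) were higher and 12 did not pass. Of all genes tested, 33.3% were lower and 41.7% higher, so the members held more lower and fewer higher calls than the array as a whole, a comparison of counts with no test. Their median log2 ratio was −0.12, against 0.03 for all genes, and 34 of 50 lay below the median of all genes. The shifts were small. None of the members changed 2-fold, and 4 passed with at least 1.5-fold: Orc6l higher, and Gins1, Dbf4 and Pola1 lower. At that size 7.39% of all genes were lower and 12.9% higher, against 6% and 2% of the members. The 4 arrays gave close values: the SD of a member's ratio ran from 0.02 to 0.18 with a median of 0.06, against 0.08 for all genes, and the members' median was −0.11, −0.13, −0.07 and −0.16 on arrays 1 to 4. The 4 butyrate levels did not overlap the 4 LIF levels for 34 members (68%), as for 46.0% of all genes.

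The direction of small ratios rested on how arrays were scaled. When loess was left out and arrays were only centred on their own medians, all genes had a median ratio of 0.41 and the members 0.40. Then 0 members were lower and 27 higher by limma, beside 4.64% and 56.7% of all genes. Of all calls, 92.4% were then higher, against 55.7% with loess. Of the 26 members called lower with loess, 23 had a ratio above 0 with median centring, the exceptions being Gins1, Dbf4 and Pola1, while the 12 higher members were above 0 in every setting run. With the log ratio of the scanner software 28 members were lower and 10 higher, and the values in the authors' table gave 31 lower and 9 higher. Relative to the median of all genes, 26 of 50 members lay below it with median centring, 33 with the software's ratio and 35 with the value table. Lower and higher below therefore mean the sign of the ratio after loess, and the lower members named below, other than Gins1, Dbf4 and Pola1, turn in sign with median centring. The ratios of those 3 stay below 0 there but do not pass. Of the lower members that turn, Mcm2, Orc1l, Cdc7 and Rrm2 were called higher there (0.37 to 0.43, limma adjusted p = 0.0380 to 0.0481). Of the 12 members that did not pass with loess, all but Impdh2 were called higher there too (0.39 to 0.70, limma adjusted p = 0.0023 to 0.047). A member said below not to pass is therefore one without a call after loess, unless another setting is named.

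**Figure D1:**
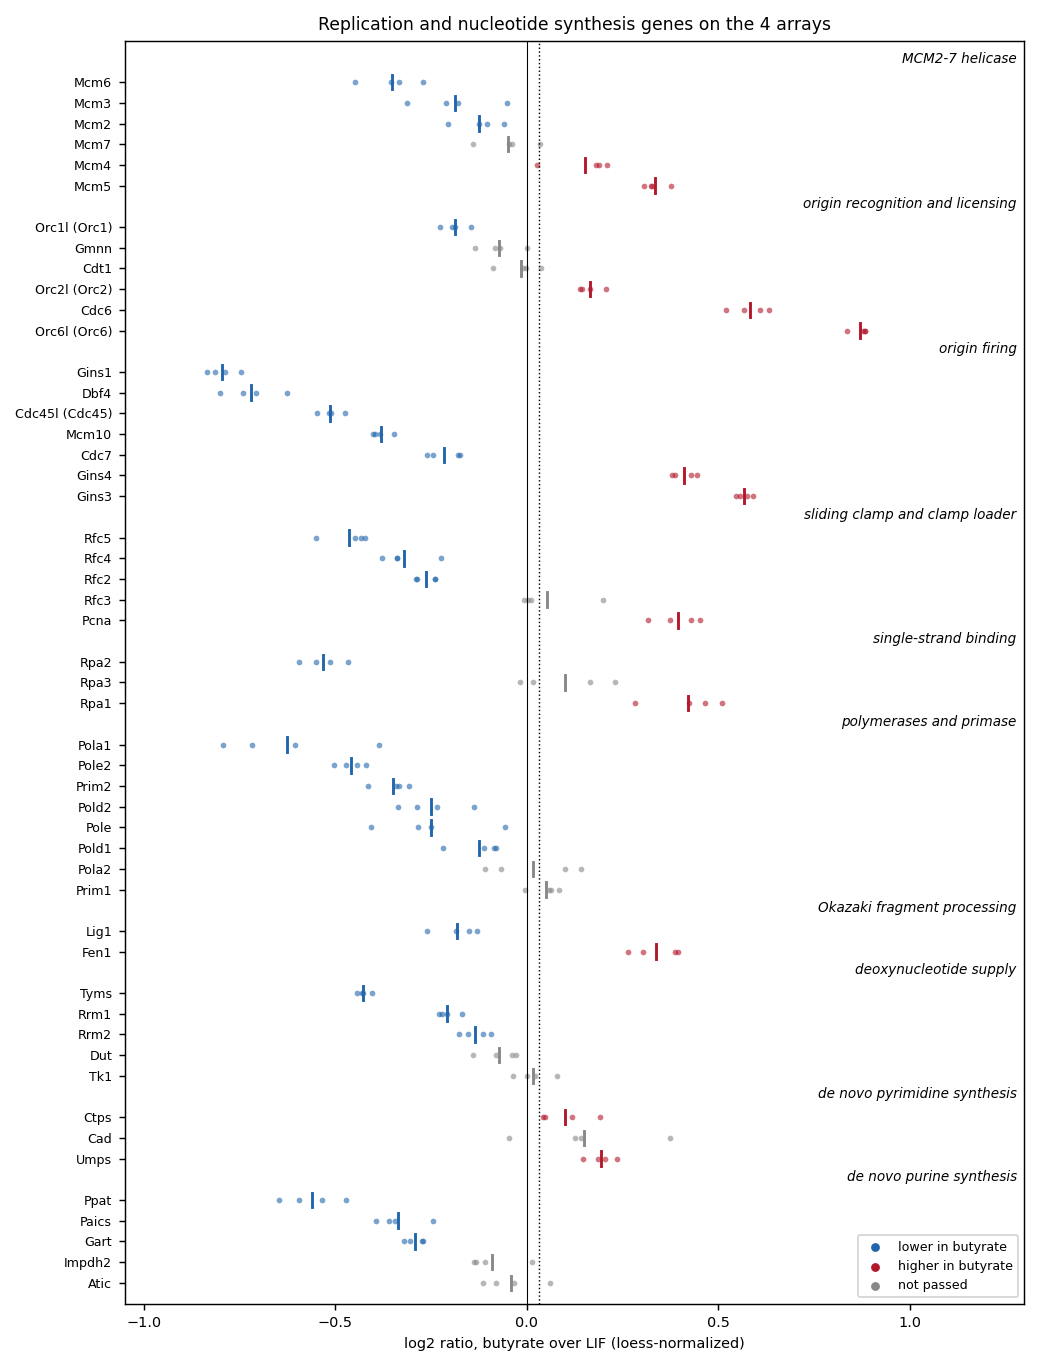
Log2 ratio of butyrate over LIF after loess for the 50 members, grouped by role, with 1 point per array, a bar at the mean and the dotted line at the median of all genes (0.03). The origin firing group runs from −0.80 for Gins1 to 0.57 for Gins3, and each blue mean other than those of Gins1, Dbf4 and Pola1 lies above 0 when arrays are centred on their median.

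The 6 subunits of the MCM2-7 ring, which is loaded and works as 1 complex, did not move together: 3 were lower (turning in sign with median centring), 2 were higher and Mcm7 did not pass. Of all genes, 33.3% were lower and 41.7% higher. Mcm6 stood at 15.04, 15.01, 15.06 and 15.12 in LIF replicates 1 to 4 and at 14.71, 14.66, 14.79 and 14.67 in butyrate. Every butyrate sample was below every LIF sample, by −0.35 ± 0.07 (SD, n = 4 arrays, limma adjusted p = 7.88e-05). Mcm5 stood at 14.50, 14.40, 14.46 and 14.39 in LIF and at 14.83, 14.71, 14.84 and 14.71 in butyrate. Here the groups were apart in the opposite direction, at 0.33 ± 0.03 (limma adjusted p = 4.04e-05). Mcm2, a usual marker of cycling cells, stood at 13.48, 13.36, 13.37 and 13.29 in LIF and at 13.27, 13.23, 13.31 and 13.18 in butyrate. Its groups overlapped, although the ratio was below 0 on each array (−0.12 ± 0.06, limma adjusted p = 0.0167), and without replicate 1 the call was lost (adjusted p = 0.0723). With median centring Mcm2 was called higher instead, at 0.40 (limma adjusted p = 0.0481). Mcm3 had −0.19, Mcm4 0.15 and Mcm7 −0.05. Mcm4 did not pass in 4 settings: limma's adjusted p was 0.459 with the authors' value table (0.045), 0.0533 with the scanner software's ratio, 0.0505 without replicate 1 and 0.0553 without replicate 3.

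Of the 6 origin recognition and licensing genes, 3 were higher, 1 was lower and 2 did not pass, where 41.7% of all genes were higher and 33.3% lower. Orc6l, the smallest subunit of the origin recognition complex, had the largest increase of all members. Its level was 13.21, 13.20, 13.26 and 13.24 in LIF and 14.08, 14.08, 14.15 and 14.08 in butyrate. The groups lay far apart for their spread, at 0.87 ± 0.02 or 1.83-fold (limma adjusted p = 2.15e-07). Cdc6, the ATPase that brings the ring to the origin, stood at 11.24, 11.11, 11.15 and 11.12 in LIF and at 11.76, 11.72, 11.78 and 11.69 in butyrate. Its butyrate samples were all above its LIF samples, at 0.58 ± 0.05 (limma adjusted p = 2.40e-06), and its other tested probe gave 0.79. Within the origin recognition complex Orc2l was higher at 0.16 and Orc1l lower at −0.19, a sign that turns with median centring. Cdt1, the partner of Cdc6 in loading, had −0.02, and geminin (Gmnn), the inhibitor of Cdt1, −0.07, and neither passed.

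Origin firing held the largest decreases when each gene was read at its brightest probe. All 7 measured genes passed, 5 lower and 2 higher, and none had overlapping groups. Among all genes, 33.3% were lower, 41.7% higher and 46.0% without overlap. Gins1, a subunit of the GINS complex, stood at 12.24, 12.30, 12.32 and 12.21 in LIF and at 11.43, 11.46, 11.53 and 11.46 in butyrate. Among the brightest probes of the members this was the largest decrease, −0.80 ± 0.04 or 1.74-fold (limma adjusted p = 4.09e-07). The second Gins1 probe also gave −0.80. Dbf4, the activating subunit of the Cdc7 kinase, stood at 11.95, 11.86, 12.03 and 12.05 in LIF and at 11.21, 11.23, 11.32 and 11.24 in butyrate. It was lower on every array, at −0.72 ± 0.07 or 1.65-fold (limma adjusted p = 1.33e-06). A second, far dimmer Dbf4 probe passed the other way at 0.16 ± 0.03, so the gene's direction holds for its brightest probe and not for both.

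Among the other subunits of GINS, Gins3 and Gins4 went against Gins1. Gins3 was higher at 0.57 ± 0.02 and Gins4 at 0.41 ± 0.03, with limma adjusted p of 1.73e-06 and 1.21e-05. A probe named 4833427B12Rik in the files, which the reference table pairs with Gins2 as a synonym and which the naming rule leaves out, gave 0.10 ± 0.07 and did not pass. The 4 subunits of 1 complex thus ran from −0.80 to 0.57. Cdc45l, which joins GINS in the helicase, was lower at −0.51, Mcm10, which helps its activation, at −0.38, and the kinase Cdc7 at −0.21, each turning in sign with median centring.

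**Figure D2:**
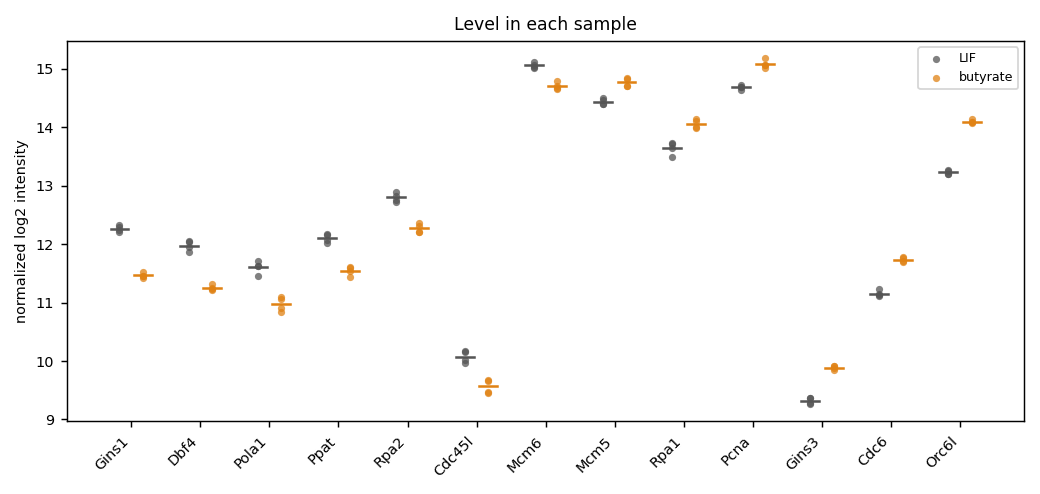
Normalized log2 intensity in each of the 4 LIF (grey) and 4 butyrate (orange) samples for 13 members, with a bar at each group's mean. The 13 were picked among called members, not strictly by size of ratio. Values of different genes come from different probes and are not comparable. The groups do not overlap in any of the 13, from Gins1 at −0.80 to Orc6l at 0.87, a count that rests on that choice. Groups did not overlap for 68% of the members and 46.0% of all genes. The lower genes other than Gins1, Dbf4 and Pola1 turn in sign with median centring.

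Pcna and its loader parted as well. Pcna, the sliding clamp, stood at 14.69, 14.70, 14.73 and 14.63 in LIF and at 15.06, 15.01, 15.19 and 15.06 in butyrate. All 4 butyrate samples were above the LIF samples, at 0.39 ± 0.06 (limma adjusted p = 2.86e-05). Of the 4 measured RFC subunits, which open the clamp onto DNA, 3 were lower, with signs that turn with median centring, and Rfc3 did not pass (0.05). The share of all genes that was lower was 33.3%. Rfc5 stood at 14.17, 14.17, 14.08 and 13.98 in LIF and at 13.74, 13.62, 13.63 and 13.56 in butyrate, which did not overlap (−0.46 ± 0.06, limma adjusted p = 1.04e-05). Rfc4 had −0.32 and Rfc2 −0.26. A probe named Recc1, which the table pairs with Rfc1 by accession and which lies outside the naming rule, gave −0.31 ± 0.08.

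The subunits of RPA, the trimer that covers single-stranded DNA, showed the same spread. Rpa1, the large DNA-binding subunit, stood at 13.72, 13.48, 13.65 and 13.72 in LIF and at 14.14, 14.00, 14.12 and 14.00 in butyrate. All butyrate samples were above all LIF samples, at 0.42 ± 0.10 (limma adjusted p = 5.64e-05). Rpa2, the middle subunit, stood at 12.90, 12.76, 12.82 and 12.73 in LIF and at 12.31, 12.21, 12.36 and 12.21 in butyrate. All butyrate samples were below all LIF samples, at −0.53 ± 0.05 (limma adjusted p = 4.41e-06), a value that becomes 0.03 with median centring. Rpa3 had 0.10 ± 0.12 and did not pass.

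None of the 8 polymerase and primase genes was higher with loess at its brightest probe: 6 were lower, with a median of −0.25 over the 8, and Pola2 (0.02) and Prim1 (0.05) did not pass. For all genes the shares were 33.3% lower and 41.7% higher. A second, far dimmer Pola2 probe, well above background in butyrate only, passed as higher at 0.16 ± 0.09. Pola1, the catalytic subunit that extends primers, stood at 11.62, 11.45, 11.71 and 11.63 in LIF and at 10.90, 11.07, 11.10 and 10.84 in butyrate. The groups did not overlap but the arrays spread more than for other members, at −0.63 ± 0.18 or 1.54-fold (limma adjusted p = 4.69e-05). With median centring Pola1 was at −0.04. Pole2, the second subunit of the leading-strand polymerase epsilon, stood at 10.38, 10.38, 10.37 and 10.17 in LIF and at 9.94, 9.91, 9.87 and 9.75 in butyrate. Its groups did not overlap, at −0.46 ± 0.04 (limma adjusted p = 7.10e-06). The primase subunit Prim2 had −0.35, the polymerase delta subunits Pold2 and Pold1 −0.25 and −0.12, and Pole, the catalytic subunit of epsilon, −0.25. Apart from Pola1, these lower ratios turn in sign with median centring, and Pold1 did not pass without replicate 4 (limma adjusted p = 0.0634).

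The pair of genes that finish Okazaki fragments differed in direction. Fen1, the flap nuclease, stood at 11.88, 11.72, 11.87 and 11.79 in LIF and at 12.14, 12.10, 12.27 and 12.10 in butyrate, with no overlap (0.34 ± 0.06, limma adjusted p = 7.91e-05). Lig1, the ligase that seals the nick, stood at 13.88, 13.81, 13.97 and 14.04 in LIF and at 13.70, 13.68, 13.81 and 13.78 in butyrate. Its highest butyrate sample reached its lowest LIF sample, while its ratio was below 0 on every array (−0.18 ± 0.06, limma adjusted p = 0.00232, turning in sign with median centring).

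With loess, deoxynucleotide supply was lower in 3 of 5 genes and higher in none, and all 5 lay below the median of all genes. Lower calls were 33.3% and higher calls 41.7% over all genes. Tyms, thymidylate synthase, stood at 13.59, 13.67, 13.77 and 13.75 in LIF and at 13.16, 13.22, 13.34 and 13.35 in butyrate. The groups did not overlap, and the SD over arrays was the smallest of all members (−0.43 ± 0.02, limma adjusted p = 8.20e-06). Rrm1, the large subunit of ribonucleotide reductase, stood at 13.18, 13.18, 13.38 and 13.25 in LIF and at 13.01, 12.96, 13.15 and 13.04 in butyrate. Its groups did not overlap either, with a ratio of −0.21 ± 0.03 (limma adjusted p = 0.000625). The ratio of the small subunit Rrm2 was −0.13. These 3 ratios turn in sign with median centring. The thymidine kinase Tk1 (0.02) and the dUTPase Dut (−0.07) did not pass, although a second Dut probe did at −0.26. With median centring Tk1, Rrm2 and Dut lay above the median of all genes, by 0.18, 0.022 and 0.021. All of them were called higher there (limma adjusted p = 0.0097, 0.043 and 0.031).

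Of the 3 de novo pyrimidine genes, 2 were higher and none lower with loess, where 41.7% of all genes were higher, and none of the 3 passed with the authors' value table. Umps, which makes UMP, stood at 12.87, 12.74, 12.80 and 12.76 in LIF and at 13.02, 12.92, 13.04 and 12.97 in butyrate, with no overlap (0.19 ± 0.04, limma adjusted p = 0.00113), and its second probe gave 0.40. With the authors' value table Umps had 0.084 and did not pass (adjusted p = 0.0662). Ctps, which makes CTP, stood at 13.72, 13.66, 13.76 and 13.82 in LIF and at 13.76, 13.77, 13.95 and 13.87 in butyrate. Its groups overlapped, its ratio was 0.10 ± 0.07 (limma adjusted p = 0.0458), and the call was lost when any 1 replicate was left out (adjusted p = 0.0504 to 0.221). Cad, which catalyses the first steps, had 0.15 ± 0.17 and did not pass at its brightest probe, while 2 of its other tested probes passed at 0.23.

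Of the 5 de novo purine genes, 3 were lower and none higher with loess, and the 3 turn in sign with median centring. Over all genes 33.3% were lower and 41.7% higher. Ppat, the enzyme of the committed first step, stood at 12.01, 12.15, 12.18 and 12.08 in LIF and at 11.54, 11.62, 11.59 and 11.43 in butyrate. Its groups did not overlap (−0.56 ± 0.08, limma adjusted p = 5.47e-06). A second Ppat probe fell less, at −0.11 ± 0.03. Paics, a later step, stood at 14.14, 14.03, 14.09 and 14.18 in LIF and at 13.78, 13.69, 13.85 and 13.78 in butyrate. Its groups were apart as well, at −0.34 ± 0.06 (limma adjusted p = 8.26e-05), and a second Paics probe fell further, at −0.93 ± 0.16. The size of these decreases therefore differed between probes of a gene, while the sign did not. Gart had −0.29, and Atic (−0.04) and Impdh2 (−0.09), the first enzyme toward GTP, did not pass.

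Of the 12 higher members, 7 lay on 3 chromosomes. On chromosomes 8, 11 and 19, which were picked because earlier results of these arrays showed their genes shifted upward, 62.4% of the 2537 genes tested were higher and their median was 0.22. Of the 11 members there, 7 (63.6%) were higher, with a median of 0.34: Mcm5, Orc6l, Gins3 and Gins4 on chromosome 8, Cdc6 and Rpa1 on chromosome 11, and Fen1 on chromosome 19. Pold2 on chromosome 11 was the 1 lower member, with a sign that turns with median centring, and Cdt1, Tk1 and Pola2 did not pass. The 7 ran from 0.33 to 0.87, and the share that was higher was close to the background of their chromosomes.

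Of the 39 members on all other chromosomes, 25 (64.1%) were lower, against 36.1% of the other 14653 genes, and 5 were higher: Mcm4, Orc2l, Pcna, Umps and Ctps. Their median was −0.19, against 0.0033 for the other genes, and 30 of the 39 lay below that. This contrast rested on loess: with median centring these medians were 0.33 and 0.36, and 0 members were called lower. The 5 higher members ran from 0.10 to 0.39 with loess, with Pcna, on chromosome 2, the highest. The difference between the medians of the members on both sets of chromosomes was 0.53 with loess, 0.58 with median centring, 0.54 with the scanner software's ratio and 0.58 with the authors' value table. For all genes tested it was 0.21, 0.35, 0.33 and 0.33. These are descriptions, since the chromosomes were chosen on the same arrays, and the part of the chromosome in any 1 gene's ratio was not tested.

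**Figure D3:**
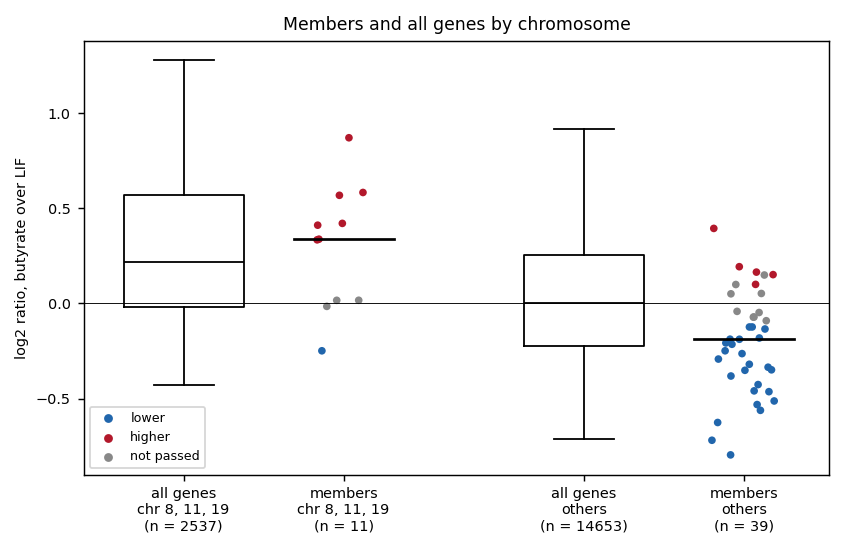
Log2 ratio of butyrate over LIF after loess for all genes tested (boxes for quartiles, whiskers from the 5th to the 95th percentile) and for the members (points with a bar at the median), split by chromosome. The 11 members of chromosomes 8, 11 and 19 have a median of 0.34 and the 39 others −0.19, and the blue points other than Gins1, Dbf4 and Pola1 turn in sign with median centring.

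**Figure D4:**
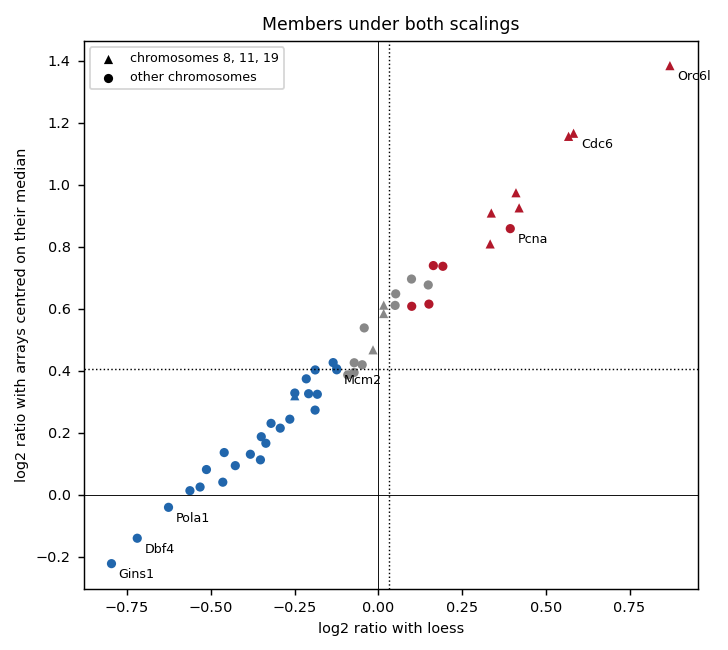
Ratio of each member with loess (horizontal) against the ratio with each array centred on its median (vertical), with dotted lines at the medians of all genes (0.03 and 0.41); red was higher, blue lower and grey not passed with loess. The members lie along 1 rising band, and the 3 points below 0 on the vertical axis are Gins1, Dbf4 and Pola1.

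Related genes outside the member list were counted in the same fit, beside the background of 33.3% lower and 41.7% higher given above. Of 23 other replication fork genes 13 were lower and 3 higher, with a median of −0.14. The largest ratios were those of Orc5l, another subunit of the origin recognition complex (−0.87), Pold3, of polymerase delta (−0.58), and Rnaseh2a, the catalytic subunit of an RNase that removes RNA from DNA (−0.53). Of 9 genes for chromatin assembly at the fork 5 were lower and 2 higher. Chaf1b (−0.50) and Rbbp4 (−0.46), both subunits of the CAF-1 histone chaperone, were lower. A further CAF-1 subunit, Chaf1a, named after its value was seen, had 0.07 and did not pass. The FACT chaperone had Ssrp1 higher at 0.39 and its partner Supt16h, named after its value was seen, lower at −0.37. Of 30 further nucleotide enzymes 11 were lower and 8 higher, with a median of −0.04. Shmt2, which makes folate-bound carbon units, had −0.73, and Prps1, which makes the ribose donor of purines, −0.70.

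Of 16 E2F and S phase regulators 8 were lower and 6 higher, with a median of −0.19. E2f2, an activator, was lower at −0.91, while cyclin E2 (Ccne2), which drives entry into S phase, was higher at 0.89 and the repressor E2f7 at 0.72. Of 15 mitosis genes 9 were lower, none was higher and 6 did not pass, 4 of these with ratios above 0, and the median was −0.35. Bub1b and Bub1, of the spindle checkpoint, had −0.78 and −0.52, and the kinase Aurka −0.57. With median centring none of these 5 lists held a lower call, and higher calls were 13 of 23, 4 of 9, 19 of 30, 8 of 16 and 6 of 15 in the order given, beside 56.7% of all genes. Mcm8, Rnaseh2b, Rtel1 and Cmpk1, lower with loess, were among these higher calls. Of the genes lower with loess, ratios above 0 were found for 12 of 13 fork genes, 5 of 5 chromatin assembly genes, 7 of 11 nucleotide enzymes, 6 of 8 regulators and 7 of 9 mitosis genes. Orc5l (−0.28), E2f2 (−0.33), Bub1b (−0.21), Prps1 (−0.16), Shmt2 (−0.15) and Aurka (−0.074) were among those still below 0.

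The labelled cell type was checked against its markers. Of 6 embryonic stem cell markers 5 were lower in butyrate with loess (4 with median centring) and 1 (Nanog, 0.23) was higher. Pou5f1 and Sox2 had −1.57 and −1.24, and both were well above background on all 4 arrays in butyrate too. With median centring they were still called lower, at −1.01 and −0.66. The summed intensity of the 6 ran from 75430 to 82210 in LIF and from 48650 to 57700 in butyrate. Of 6 fibroblast markers 5 were tested, 4 higher and Thy1 lower (0.40 with median centring), with a sum of 1481 to 1882 in LIF and 9422 to 9784 in butyrate. Among the 4, Dcn (0.09) passed the filter through butyrate alone, had overlapping groups and was at −0.03 with median centring. All 6 trophoblast markers were higher, with sums of 26860 to 31590 and 107900 to 114000, the second open upward since Krt8 and Krt18 were saturated in butyrate. Elf5 (0.39) also passed the filter through butyrate alone, and its groups overlapped. Of 4 blood markers the 3 tested were higher, with sums of 667 to 971.9 and 1141 to 1578, while no probe of Ptprc, the defining blood marker, was well above background in either group. In bulk RNA, fewer cells of a type and less RNA per cell cannot be told apart. The part of such differences in cell state or makeup in the members' ratios was not tested.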

How the data were processed

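The 8 deposited scanner files were 4 distinct scans of 1 slide, read with Agilent Feature Extraction 9.1 per the submitters' processing notes. Each deposited file holds spot intensity values per channel, and a log10 ratio of Cy5 over Cy3 that the software corrected for background and dye, per the file headers. The authors' value table holds log2 values (median 6.487 in every column, quantile-normalized judging from the values), and the sources used here do not give the tool.

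Starting from mean signals and local background medians, normexp was applied with limma 3.58.1 under R 4.3.3 (offset 50, which understates folds of dim genes) followed by loess within each array, with control spots at weight 0 and 14 outlier spots missing. Tested were 25662 of 41174 probes, which stood well above background in either channel on 3 or more of 4 arrays. A gene took its brightest tested probe, a member only probes under its own name. lmFit and eBayes tested the 4 log2 ratios against 0, and p-values were adjusted by Benjamini-Hochberg across 17190 genes. This ratio holds the array as the replicate block: deviations of same-numbered samples, which share an array, correlated at 0.158 to 0.306, and those of other numbers at −0.214 to 0.101. With 1 slide and 1 scan day no batch could be tested. The fit was tested on simulated data. Members and lists were chosen with earlier results of these data known. Levels per sample are given for Mcm2, Pcna, up to 2 called members per role group with the largest ratios, called members past 1.5-fold and members whose probes passed in opposite directions, and values for up to 3 called genes per related list, of which 1 is not reported here. Figures used matplotlib 3.10.9 in Python 3.11.15. Alternatives changed the background correction, scaling, filters, choice of probe, names, variance model, block, replicates, source of values and chromosomes counted.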

Additional observations from a re-analysis of the deposited data

Results flagged for a closer look

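In 8 of 150 sets of 4 values (ratios, LIF levels and butyrate levels of the 50 members) 1 sample lay far from the other 3 by Dixon's test, and chance gives about 1 in 20. Replicate 4 was the outlying array for 3 ratios: Mcm4 had a log2 ratio of 0.027 there against 0.18 to 0.21 on the others, Orc6l 0.84 against 0.88 on each of the others, and Rfc3 0.20 against −0.0065 to 0.01. Replicate 4 was also lowest for the LIF level of Rfc4 (12.76 against 12.92 to 12.95), the LIF level of Pole2 (10.17 against 10.37 to 10.38) and the butyrate level of Rrm2 (12.26 against 12.38 to 12.39). Replicate 3 was highest for the LIF level of Orc2l (11.86 against 11.72) and the butyrate level of Orc6l (14.15 against 14.08). Without replicate 4, Mcm4 and Orc6l were still called higher and Rfc3 did not pass.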

How the results depend on the processing

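Of 19 alternatives, centring each array on its median without loess changed the most. It left 0 members lower and 27 higher, moved their median to 0.40 and turned 29 members to a ratio above 0: Mcm2 0.40, Mcm3 0.27, Mcm6 0.11, Mcm7 0.42, Mcm10 0.13, Orc1l 0.40, Cdt1 0.47, Gmnn 0.39, Cdc45l 0.082, Cdc7 0.37, Rfc2 0.24, Rfc4 0.23, Rfc5 0.041, Rpa2 0.025, Pold1 0.41, Pold2 0.32, Pole 0.33, Pole2 0.14, Prim2 0.19, Lig1 0.32, Rrm1 0.33, Rrm2 0.43, Tyms 0.094, Dut 0.43, Gart 0.22, Ppat 0.014, Paics 0.17, Atic 0.54 and Impdh2 0.39. It moved the median of all genes up by 0.37 and single members by 0.46 to 0.60, and the cause of the larger move of the members was not tested. The members' median was −0.18 with the scanner software's log ratio, −0.21 with the authors' value table and −0.19 without chromosomes 8, 11 and 19, where 5 members stayed higher, as 11 fewer were counted. Members that had not passed also turned in sign: without background correction Cdt1 (0.0052) and Pola2 (−0.00048); with the software's ratio Rfc3 (−0.038), Rpa3 (−0.00034), Pola2 (−0.073) and Tk1 (−0.065); with the value table Rfc3 (−0.059), Rpa3 (−0.0135), Pola2 (−0.10) and Tk1 (−0.087). With 1 replicate left out, Cdt1 ran from −0.034 to 0.0087, Pola2 from −0.026 to 0.058 and Tk1 from −0.0049 to 0.034, the lower members numbered 25 to 27, the higher ones 10 to 12, and the members' median was −0.13 to −0.11. The cause of these turns was not tested.

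Without the replicate block, 12508 genes passed, and 26 members were lower and 11 higher, Ctps being lost (limma adjusted p = 0.0854). Ctps was also lost with a random replicate block, an offset of 16, no filter on dim probes, the software's ratio and the value table. Between-array quantiles (Aquantile) leave the ratio as it is by construction. Background correction and filters moved no count of the members by more than 1.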
